A study of Homo sapiens with 12 samples.

Results

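The RBM genes are named for an RNA-binding motif and a number, and their splicing and levels were measured in a pair of prostate cancer cell lines. Members were all genes whose symbol is RBM followed by a number, with at most 1 letter after it, so that RBMX and RBMS genes, read-through genes and antisense genes were not members. The GENCODE 29 annotation holds 38 such genes, 37 of them protein coding and 1, RBM8B, a processed pseudogene. Of these, 8 had exon events of their own in RASL-seq (12 events of 2023, in 8 of 1431 named genes) and 31 had them in RNA-seq (292 events of 114816, in 31 of 12974 named genes). RBM12 was measured only in RNA-seq events shared with the overlapping gene CPNE1, and RBM8A, RBM8B, RBM15B, RBM24, RBM43 and RBM46 had no event in either table. An event is an exon with the flanking exon ends that it joins, counted in an included and a skipped form.

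The samples were PC3E, an epithelial line, and GS689.Li (GS689 below), a mesenchymal one, both derived from the PC3 prostate cancer line, labelled wild type and grown in the same medium with G418. Each line had 3 libraries in RASL-seq, which ligates probe pairs across splice junctions and counts the products, and 3 in RNA-seq. The replicates are numbered without a statement that they were separate cultures, so the spread behind the p-values may be technical. Each line is 1 derivative of 1 tumour line, and a difference between them is not a difference between epithelial and mesenchymal cells at large.

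RASL-seq libraries held 615758 to 954120 counts and covered plus-strand events only, so RBM39 and RBM23, on the minus strand, are known here from RNA-seq alone. RNA-seq libraries held 93842790 to 120853566 table counts, in which a read can count in several events. The RNA-seq table numbers its libraries as set 1 and set 2 with 3 in each and does not say which line a set is, so its values are given by library with no test, and only RASL-seq compares the lines. All 4 epithelial marker genes with a RASL-seq total fell in GS689 and VIM, the mesenchymal filament gene, rose, while haematopoietic markers had no total to test. PC3E replicate 2 stood apart from the other libraries of its line, with a chi-square per degree of freedom of inclusion shares of 6.30 against replicate 1 and 4.39 against replicate 3, where the other within-line pairs lay between 1.76 and 2.27.

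RBM proteins bind RNA through RNA recognition motifs and act at many steps of its life: some sit in the spliceosome at the 3′ splice site (RBM17, RBM39) or in its catalytic core (RBM22), others choose alternative exons (RBM5, RBM6, RBM10, RBM25), mark RNA for methylation (RBM15) or for decay in the nucleus (RBM7, RBM26, RBM27), or assist its editing (RBM47). Several splicing factors limit their own output by an exon whose inclusion or loss brings a premature stop codon and nonsense-mediated decay of the transcript. An inclusion level tells what share of the measured junction counts holds the exon.

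RBM5, RBM6 and RBM10 are related splicing regulators with a shared domain order, and RBM5 is known for exon choice in apoptosis genes. Each carries a 74 nt exon as exon 6 of its long transcript, and the 3 exons are shown because the copies were included at different levels. Capitals mark the bases that all 3 share, 45 of 74 (60.8%), in sequences from GENCODE 29 transcripts.
RBM5 exon 6, plus strand, chr3:50137965-50138038 (hg19): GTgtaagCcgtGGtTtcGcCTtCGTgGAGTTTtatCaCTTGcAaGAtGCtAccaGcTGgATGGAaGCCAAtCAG
RBM6 exon 6, plus strand, chr3:50036873-50036946 (hg19): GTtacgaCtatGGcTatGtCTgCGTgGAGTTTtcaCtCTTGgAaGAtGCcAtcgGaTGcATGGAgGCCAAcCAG
RBM10 exon 6, plus strand, chrX:47034418-47034491 (hg19): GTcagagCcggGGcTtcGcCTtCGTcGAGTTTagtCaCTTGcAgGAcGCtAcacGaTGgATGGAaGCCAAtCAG
RBM5 and RBM10 were identical at 61 bases (82.4%), RBM5 and RBM6 at 51 (68.9%), and RBM6 and RBM10 at 48 (64.9%). The common length is no multiple of 3, so that skipping this exon alone shifts the reading frame.

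The RBM5 copy was included in most transcripts. In RASL-seq it was at 90.1%, 97.4% and 91.4% in PC3E (replicates 1, 2 and 3, in this order here and below) and at 87.6%, 90.9% and 88.3% in GS689, from 770 to 1254 counts per library. The lines overlapped, with PC3E replicate 2 the highest library. Mean inclusion was 93.0% ± 3.91 in PC3E and 88.9% ± 1.75 in GS689 (SD, n = 3 each), a log2 odds ratio of -0.71 (SE 0.36, 95% interval -1.54 to 0.11) with an adjusted p of 0.335 in the limma-moderated model of the counts of both forms. Without PC3E replicate 2 the log2 odds ratio was -0.28. In RNA-seq the same exon lay at 93.4%, 93.7% and 88.1% in set 1 and 88.5%, 92.8% and 91.1% in set 2. The transcript that skips it is annotated as a target of nonsense-mediated decay.

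The RBM6 copy was skipped more often. Transcripts that skip it are annotated both as targets of nonsense-mediated decay and as protein coding. RASL-seq inclusion was 73.2%, 63.3% and 69.8% in PC3E and 70.9%, 69.5% and 73.2% in GS689, with PC3E replicate 2 the lowest library and the lines overlapping. The means were 68.7% ± 5.03 and 71.2% ± 1.88 (SD, n = 3 each), and the log2 odds ratio was 0.15 (95% interval -0.19 to 0.50, adjusted p = 0.712 by the limma-moderated model), and -0.02 without PC3E replicate 2. RNA-seq had 2 split events of this exon, which differ in the upstream flanking exon. With the 70 nt exon 5 as the flank the level was 85.7%, 65.2% and 83.5% in set 1 and 76.9%, 74.4% and 77.2% in set 2, and with the exon that ends at position 50000118, upstream of exon 3, as the flank it was 67.4%, 56.1% and 61.9% in set 1 and 57.2%, 51.8% and 54.2% in set 2. A read across the downstream junction of exon 6, which both events have, can count in both. Only 2 to 12 reads per library joined exon 6 directly to the farther exon, against 66 to 149 that skipped it, so the second level is not the share of exon 6 next to that exon. The event of exon 5 with the same farther flank lay at 27.4%, 42.8% and 26.7% in set 1 and 29.5%, 25.8% and 26.9% in set 2, with at most 3 direct reads per library. Library 2 of set 1 had the lowest level of exon 6 with exon 5 as the flank and the highest level of exon 5, and the sets overlapped in each.

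The RBM10 copy was included in nearly every transcript. RASL-seq counted 2 skipped products among 1402 over the 6 libraries, and library levels ran from 99.6% to 100%. It was too rarely skipped to be tested. RNA-seq gave a pooled level of 97.7%, from 94.7% to 99.3% by library. The order of the copies, RBM10 above RBM5 above RBM6, was the same in both assays, and the library ranges of the 3 copies did not overlap in either assay (for RBM6, with exon 5 as the flank).

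Another RBM5 exon, the 61 nt exon 8 of the same transcript, is printed for its lower and more variable level, with the last 3 bases before the donor splice site in capitals.
RBM5 exon 8, plus strand, chr3:50141681-50141741 (hg19): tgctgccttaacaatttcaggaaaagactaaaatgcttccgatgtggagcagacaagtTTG
RASL-seq inclusion was 76.5%, 83.9% and 69.2% in PC3E and 85.3%, 85.7% and 77.3% in GS689, from 44 to 95 counts per library. PC3E replicate 3 was lowest and the lines overlapped. The means of 76.5% ± 7.32 and 82.7% ± 4.75 (SD, n = 3 each) gave a log2 odds ratio of 0.61 (95% interval -0.35 to 1.58, adjusted p = 0.538 by the limma-moderated model). It was 0.93 without PC3E replicate 2 and 0.32 without PC3E replicate 3. RNA-seq inclusion was 76.6%, 91.9% and 88.2% in set 1 and 84.0%, 90.5% and 89.3% in set 2, with library 1 of set 1 the lowest. The 161 nt exon 10 of RBM5 was the third RBM5 exon between 5% and 95% in RNA-seq, at 91.8%, 97.3% and 93.9% in set 1 and 89.3%, 93.7% and 90.6% in set 2. The 85 nt exon 16, measured in RASL-seq, had 1 skipped product among 310 counts and was not tested.

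The 1279 nt exon 3 of RBM6 (chr3:50004903-50006181) is the longest exon of this trio in RASL-seq and is coding. It was included at 81.8%, 65.5% and 81.0% in PC3E and 72.1%, 70% and 80.6% in GS689, from 29 to 68 counts per library. The lines overlapped at means of 76.1% ± 9.17 and 74.2% ± 5.65 (SD, n = 3 each), with an adjusted p of 0.843 by the limma-moderated model. RNA-seq gave higher levels, from 91.8% to 95.1% by library. A 1551 nt form of this exon, which starts farther upstream, lay between 89.2% and 93.7%, and both forms share their downstream junction, so that a read across it can count in both events.

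Exon 4 of RBM10, 231 nt long, was the most evenly split exon of RBM10, and both assays read it at similar levels. Skipping it keeps the reading frame and gives the shorter of the known RBM10 proteins. It is printed with its last 3 bases in capitals.
RBM10 exon 4, plus strand, chrX:47030427-47030657 (hg19): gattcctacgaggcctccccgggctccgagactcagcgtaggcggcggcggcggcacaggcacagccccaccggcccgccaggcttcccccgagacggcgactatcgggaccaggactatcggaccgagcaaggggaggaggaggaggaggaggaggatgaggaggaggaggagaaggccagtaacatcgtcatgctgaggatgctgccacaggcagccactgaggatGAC
RASL-seq inclusion was 57.6%, 62.4% and 60.9% in PC3E and 57.0%, 59.1% and 57.7% in GS689. All 6 libraries lay within a few points and the lines overlapped. The means were 60.3% ± 2.44 and 57.9% ± 1.07 (SD, n = 3 each), a log2 odds ratio of -0.14 with a 95% interval of -0.49 to 0.21 and an adjusted p of 0.758 by the limma-moderated model. RNA-seq inclusion was 65.8%, 67.9% and 51.1% in set 1 and 57.6%, 66.3% and 63.5% in set 2, with library 3 of set 1 the lowest. The Wilson 95% intervals of that library (47.5% to 54.7%) and of library 1 of set 1 (61.7% to 69.8%) did not overlap, so these 2 libraries differed by more than counting error. Such intervals cover counting error only.

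RBM27, a zinc finger protein of a nuclear RNA decay complex, had a 165 nt coding exon that the assays read at unlike levels. It is printed for that difference, with its last 3 bases in capitals.
RBM27 exon 9, plus strand, chr5:145631274-145631438 (hg19): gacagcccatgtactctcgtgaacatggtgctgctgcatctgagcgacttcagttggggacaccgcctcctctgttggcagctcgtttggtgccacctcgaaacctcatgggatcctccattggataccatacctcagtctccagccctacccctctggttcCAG
RASL-seq inclusion was 32.5%, 33.9% and 33.3% in PC3E and 33.3%, 34.5% and 29.8% in GS689, from 456 to 806 counts per library. The lines overlapped, and the log2 odds ratio was -0.02 (95% interval -0.28 to 0.25, adjusted p = 0.965 by the limma-moderated model). RNA-seq inclusion was 68.3%, 67.8% and 71.3% in set 1 and 71.9%, 69.3% and 68.3% in set 2. Every RNA-seq library thus lay above every RASL-seq library, while libraries within an assay were close. RASL-seq counts the upstream junction alone and RNA-seq both junctions with a length correction. The part of this in the difference was not tested.

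Exon 13 of RBM27, 297 nt long (chr5:145641073-145641369), matched an overlapping gene as well, AC091959.3, and was counted apart from the members' events. Its RASL-seq inclusion was 55.3%, 46.2% and 38.5% in PC3E and 73.3%, 65.4% and 56.0% in GS689, from only 25 to 39 counts per library. The lines did not overlap, at means of 46.6% ± 8.41 and 64.9% ± 8.68 (SD, n = 3 each). The log2 odds ratio of 1.05 (SE 0.46, 95% interval 0.04 to 2.06) had an unadjusted p of 0.0404 and an adjusted p of 0.226 in the limma-moderated model, so it was not called. RNA-seq read the exon at 99.4%, with a range of 99.2% to 99.6% by library.

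RBM25, a partner of the U1 snRNP in 5′ splice site choice, had a 58 nt exon (exon 5) with no skipped product among 2011 RASL-seq counts, which allows a skipped share of up to 0.149% by counting error alone. RNA-seq gave a pooled inclusion of 99.5%, a larger skipped share than that limit, with 98.7% to 99.9% by library. The 122 nt RBM25 exon (chr14:73531680-73531801), in the untranslated part of its coding transcripts, was rare: 9.82%, 8.49% and 10.8% in set 1 and 7.59%, 5.43% and 4.05% in set 2. Each library of set 2 lay below each of set 1, with set 2 library 1 (Wilson 95% interval 6.36% to 9.03%) and set 1 library 2 (6.68% to 10.7%) overlapping in counting error. It was the only event of an RBM gene alone between 5% and 95% in which the sets lay apart, 1 of 31. They lay apart in 23.5% of all events between 5% and 95%. The 137 nt exon 3 of RBM34, shared with ARID4B and not among the 31, had them apart as well. Its level was 84.2%, 82.1% and 79.5% in set 1 and 84.8%, 86.0% and 84.4% in set 2. Set 1 library 1 (Wilson 95% interval 81.4% to 86.6%) and set 2 library 3 (80.8% to 87.4%) overlapped in counting error.

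RBM3, an RNA chaperone induced by cold, had a 269 nt exon (chrX:48434203-48434471) that is annotated in no protein-coding transcript. RASL-seq inclusion was 3.11%, 14.9% and 7.41% in PC3E and 5.47%, 13.04% and 5.29% in GS689. The replicates numbered 2 were highest in both lines, and the lines overlapped at means of 8.48% ± 5.97 and 7.93% ± 4.43 (SD, n = 3 each), with an adjusted p of 0.964 by the limma-moderated model. The RNA-seq event with the same flanking exons pooled to 2.56%, from 1.23% to 4.07%. The event with a farther upstream flank pooled to 79.8%, but at most 1 read per library joined the exon to that flank, and its other inclusion counts can be shared with the first event.

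RBM15 recruits the m6A methyltransferase to RNA, and its 111 nt exon (exon 2, chr1:110888161-110888271) is partly coding. RASL-seq counted it thinly, with 2 to 20 counts per library. Inclusion was 90%, 70% and 85.7% in PC3E and 84.2%, 50% and 40% in GS689, where the last 2 values rest on 2 and 5 counts. The lines overlapped, and the log2 odds ratio of -0.94 had a 95% interval of -3.03 to 1.14 (adjusted p = 0.710 by the limma-moderated model), so a difference was not detectable at this depth. The log2 odds ratio was -2.68 without GS689 replicate 1 and -0.36 without GS689 replicate 3. RNA-seq inclusion was 62.0%, 32.4% and 58.6% in set 1 and 44.7%, 32.7% and 39.8% in set 2. Library 2 of set 1 was the lowest of the 6 libraries.

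RBM14, a transcriptional coactivator, and RBM4, a splicing regulator, are neighbours on chromosome 11, and a read-through gene, RBM14-RBM4, joins them. The 68 nt exon 2 of RBM14 had 7 included products among 4133 RASL-seq counts, with 0.45% as the highest library, and was not tested. The 691 nt exon of RBM4 (exon 3, chr11:66410921-66411611), shared with the read-through gene, was included at 51.0%, 33.5% and 43.2% in PC3E and 36.7%, 38.0% and 41.6% in GS689. PC3E replicates 1 and 2 were the highest and lowest of all libraries. The means of 42.6% ± 8.80 and 38.8% ± 2.55 (SD, n = 3 each) had an adjusted p of 0.704 in the limma-moderated model, and the event was called without PC3E replicate 2, at an adjusted p of 0.0421 and a log2 odds ratio of -0.50. RNA-seq read it at 71.4% to 80.2%. The 424 nt exon of the read-through gene was at 98.9% or more in every RASL-seq library.

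In each RASL-seq exon tested that belongs to an RBM gene alone, the lines overlapped. Of the 12 events that belong to an RBM gene alone, 8 in 6 genes had enough counts of both forms to be tested, and 0 were called at an adjusted p under 0.05 and 5 points or more between the means, where 5.87% of the 1124 events tested were called. None had an unadjusted p under 0.05 in this model, 0 were called and 0 had an unadjusted p under 0.05 in limma on the log2 ratio of the forms, and adjusted p ran from 0.335 to 0.965. In 0 of the 8 events did the lines lie apart, against 23.6% of all tested events. Without PC3E replicate 2, which stood apart, the count of called RBM events was 0 as well. Their median absolute difference was 2.42 points, beside 2.14 over all tested events. The intervals given above show which sizes of change the counts still allow.

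**Figure D1:**
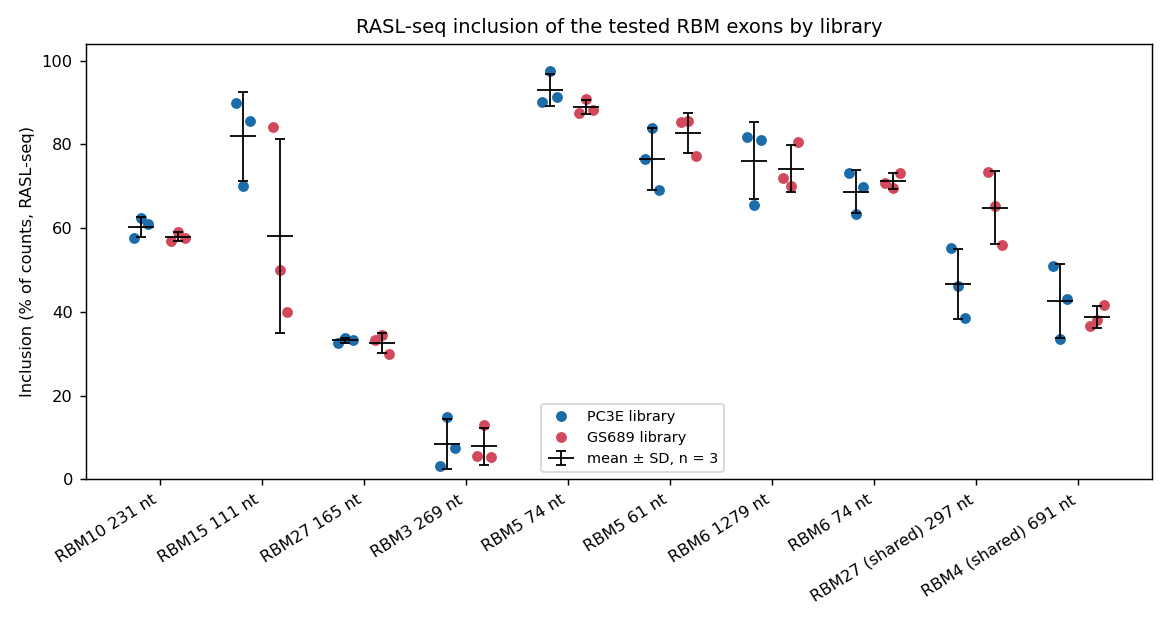
Inclusion (% of RASL-seq counts) of the 8 tested RBM events and the 2 events shared with another gene, with 1 point per library in PC3E (blue) and GS689 (red) and bars for the mean ± SD of 3 libraries. The lines overlap in all but the shared 297 nt RBM27 exon, and RBM15 spreads most.

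RBM39, a U2AF-like factor of the 3′ splice site that aryl sulfonamide drugs send to degradation, had 36 RNA-seq events and 2 exons between 5% and 95%. The 73 nt exon 3 of transcript RBM39-206 is in transcripts annotated for nonsense-mediated decay and in none that is protein coding. It is printed up to the stop codon, TAA from base 70 of the exon, that ends the annotated reading frame, in capitals.
RBM39 73 nt exon, minus strand, chr20:34328447-34328519 (hg19), to the stop codon: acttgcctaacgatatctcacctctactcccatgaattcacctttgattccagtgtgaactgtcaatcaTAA
It was included at 13.9%, 30.1% and 19.6% in set 1 and 20.5%, 30.9% and 26.8% in set 2, and pooled to 23.4%. The sets overlapped, with library 1 of set 1 lowest and library 2 of each set highest. With at least 1588 counts per library, the Wilson 95% interval of library 1 of set 1 was 12.6% to 15.3% and that of library 2 of set 1 was 28.0% to 32.2%, so the spread within a set was larger than counting error.

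The other RBM39 exon is a 90 nt form that starts 24 bases upstream of the usual 66 nt one. The capitals mark these extra bases.
RBM39 90 nt exon, minus strand, chr20:34317384-34317473 (hg19): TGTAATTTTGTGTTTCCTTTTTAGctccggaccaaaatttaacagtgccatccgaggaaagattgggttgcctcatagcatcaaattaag
It was read at 87.5%, 94.3% and 93.6% in set 1 and 92.7%, 91.0% and 91.5% in set 2, against 96.9% in the pool for the 66 nt form between the same flanking exons. Both values stand against the same skipping counts, and both forms share 1 junction, so these levels do not add up to a whole and do not give the share of the longer form among transcripts.

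RBM23 is the closest relative of RBM39 and had as many events, 36, with 7 between 5% and 95%. Its 48 nt coding exon has a longer 67 nt form, shown with the 19 bases that only it holds in capitals.
RBM23 67 nt exon, minus strand, chr14:23377542-23377608 (hg19): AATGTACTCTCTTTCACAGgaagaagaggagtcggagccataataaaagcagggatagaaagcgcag
The 48 nt exon was in 3 split events that differ in the flanking exon on its 5′ side and have the junction on its 3′ side in common. A read across that junction can count in all 3 events. With the 113 nt exon as the flank, the level was 24.7%, 36.2% and 36.0% in set 1 and 21.9%, 25.9% and 25.5% in set 2. With the 76 nt exon as the flank it lay between 74.6% and 89.0%, although only 2 to 9 reads per library joined the 48 nt exon directly to the 76 nt exon, beside 5 to 13 that skipped it. With the exon upstream of both as the flank it was 87.4%, 89.3% and 64.7% in set 1 and 46.2%, 70.6% and 64.9% in set 2. In that event 0, 1 and 0 reads in set 1 and 0, 5 and 1 in set 2 joined the exon directly to the flank, beside 5 to 39 that skipped it. The levels of these last 2 events thus rest mostly on reads across the common junction and are not the share of the exon next to each flank. The last one had the widest gap of set means of any RBM event, at -19.9 points, and carries this limit. The 67 nt form ran from 6.83% to 11.6%, the 54 nt exon from 87.9% to 95.6%, the 113 nt exon from 83.3% to 97.0% and the 76 nt exon from 87.4% to 97.6%.

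Among the other RBM genes, the split exons were few. RBM41, a protein of the minor spliceosome, had a 72 nt coding exon at 30.5%, 51.9% and 37.7% in set 1 and 35.03%, 37.5% and 34.9% in set 2, and an event of the same exon with another flank, which has a junction in common with the first, at 81.3% to 93.8%. Its 105 nt exon, at 30 or more counts per library, was at 83.8%, 100% and 83.0% in set 1 and at 96.1% or above in set 2, and its 94 nt exon lay between 4.85% and 11.0%. In each of these the sets overlapped. RBM26, the relative of RBM27, had a 72 nt exon at 6.06% to 18.5%. RBM4B, the near copy of RBM4, had a 222 nt exon at 6.89% to 14.1% that is annotated only in a nonsense-mediated decay transcript. How reads common to RBM4 and RBM4B were assigned is not given in the sources used here, so their values are uncertain.

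The last 3 split exons lay in RBM12B, RBM19 and RBM38. The 68 nt exon of RBM12B, outside the coding sequence, was included at 62.0%, 45.6% and 52.9% in set 1 and 60.7%, 51.4% and 57.4% in set 2. The 72 nt exon of RBM19, a ribosome assembly factor, was at 91.3% to 98.2%, and the 55 nt exon of RBM38, a target of p53, at 90.7% to 94.7%. By contrast, every event of RBM7, RBM17, RBM22, RBM42, RBM45 and RBM48 with enough counts was at 98.6% or more in the pool.

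Together, 252 RBM events in 27 genes had at least 20 counts in every RNA-seq library. Of these, 31 events (27 exons in 15 genes, where events of 1 exon can count the same reads) lay between 5% and 95%, a share of 12.3% beside 14.2% of all 90656 events, 194 lay at 95% or above, and 27 (10.7%, beside 6.05% of all) at 5% or below. The 31 include the RBM3 event with the farther upstream flank, although the same exon pooled to 2.56% in the event with the nearer flank. The 31 split events were shorter, with a median of 74 nt beside 114 nt, and 15 (48.4%, beside 43.6% of all) had a length that is a multiple of 3. Both length figures count events and not exons, so an exon in several events is counted several times. Of the 31, 19 were coding, 3 partly coding, 2 in the untranslated part and 7 in no protein-coding transcript. The mean of set 2 was lower in 21 and higher in 10, where 53.6% of all split events were lower. Set means were 10 points or more apart in 2 of the 31, in RBM23 and RBM15, where 14.9% of all split events were. Over all 252 events the sets lay apart in 12, beside 9.72% of all events. The median range over the 6 libraries was 12.5 points, beside 12.9.

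**Figure D2:**
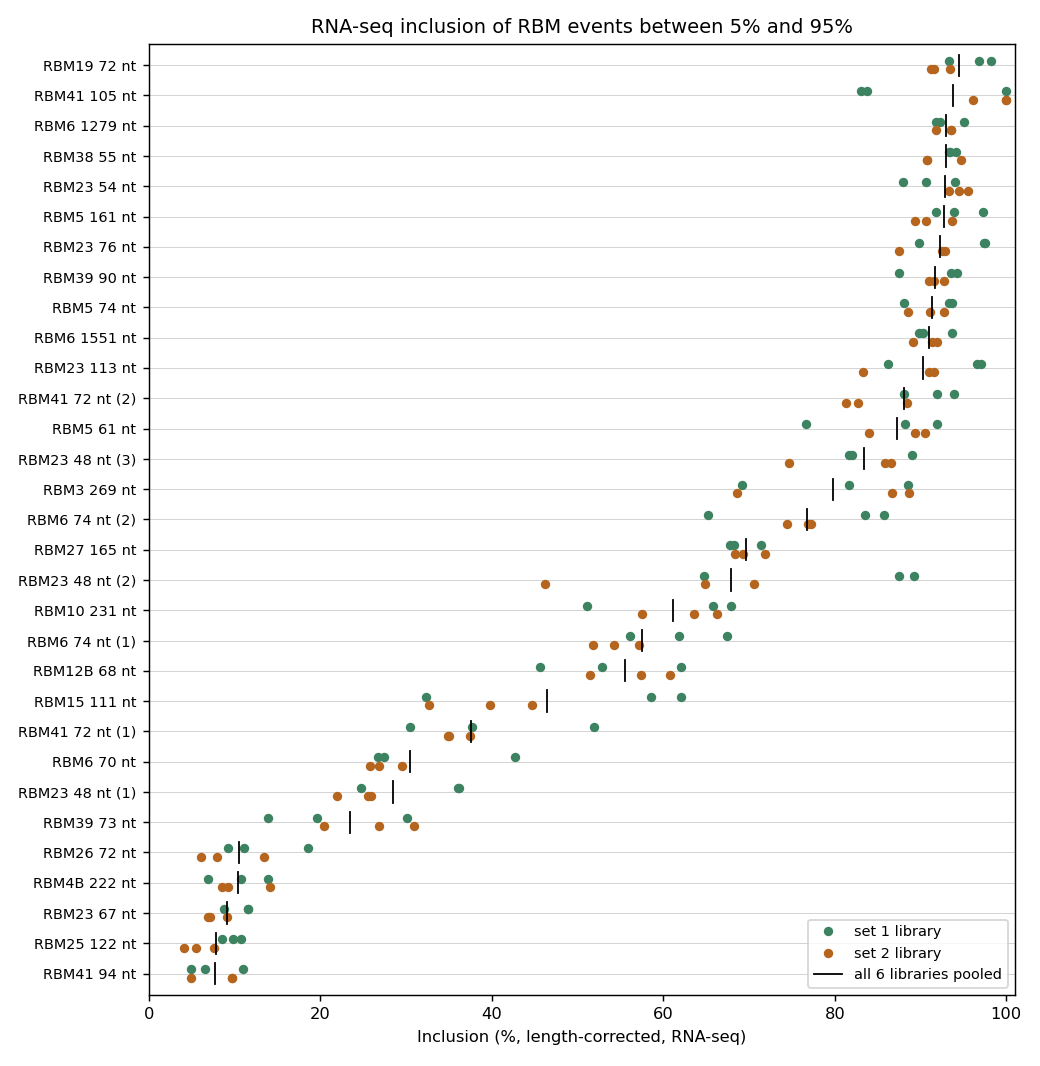
Length-corrected RNA-seq inclusion (%) of the 31 RBM events between 5% and 95% in the pool, with 1 point per library of set 1 (green) and set 2 (orange) and a line for the pool of 6 libraries. The points of the sets overlap in every row but the 122 nt RBM25 exon, and numbers in brackets tell apart events of exons with the same length.

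Both assays read 12 events of RBM genes alone, with a median absolute difference of pooled levels of 3.75 points. The levels were close for RBM10 exon 6, RBM5 exon 16 and the exons of RBM14 and RBM25, which both assays read as almost always or never included. They were also close for RBM5 exon 6 (91.0% in RASL-seq and 91.3% in RNA-seq) and RBM10 exon 4 (59.2% and 61.1%). They were far apart for RBM27 exon 9 (33.0% and 69.7%), RBM15 (80.0% and 46.4%) and RBM6 exon 3 (74.9% and 93.0%). Among the shared events, RASL-seq minus RNA-seq was -44.0 points for RBM27 exon 13, which RNA-seq read at 99.4%, and -36.5 points for the RBM4 exon. No test was made of these differences.

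**Figure D3:**
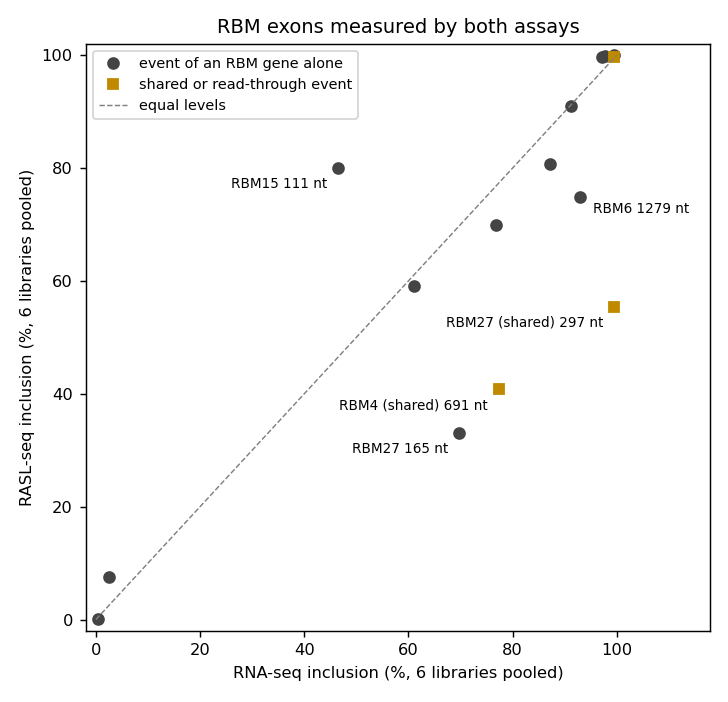
Pooled inclusion (%) over 6 RASL-seq libraries (vertical) against 6 RNA-seq libraries (horizontal) for RBM events in both tables. Round points are events of an RBM gene alone, squares are shared or read-through events, and names mark events more than 10 points off the line of equal levels. RBM15 lies above the line, the other named events below it.

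Gene totals, in which included and skipped counts of all events of a gene are added, were compared next. In RASL-seq the totals of RBM3, RBM14, RBM15, RBM25 and RBM27 rest on 1 event each. In bulk samples such a total cannot tell fewer cells of a type from less RNA per cell, and a sum over measured junctions is not the expression of the whole gene. Of the 8 RBM genes with a RASL-seq total, 0 were called at an adjusted p under 0.05 by limma-voom, where 29.8% of the 1317 totals tested were called. In 3 of the 8 the lines did not overlap, beside 46.4% of all totals: RBM3 and RBM6 with GS689 higher (24.3% of all totals) and RBM10 with GS689 lower (22.1%). The lowest adjusted p was 0.112. RBM totals had a median absolute log2 change of 0.25, beside 0.37 over all totals, and 1, that of RBM3, had an unadjusted p under 0.05.

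RBM3 was at 266, 148 and 273 CPM (counts scaled to library totals adjusted by trimmed means of log ratios) in PC3E and 338, 278 and 337 in GS689. Each GS689 library was above each PC3E library, by little at PC3E replicate 3. The log2 change was 0.51 (SE 0.22, 95% interval 0.01 to 1.00, adjusted p = 0.112 by limma-voom), and 0.22 without PC3E replicate 2. RBM6 was at 762, 844 and 885 in PC3E and 1000.0, 978 and 971 in GS689, a log2 change of 0.25 (SE 0.12, adjusted p = 0.152 by limma-voom). RBM10 was at 644, 651 and 695 in PC3E and 573, 552 and 549 in GS689, a log2 change of -0.25 (SE 0.12, adjusted p = 0.157 by limma-voom). The libraries of a line were spread as well. RBM6 ran from 762 to 885 in PC3E beside a lowest GS689 library of 971. RBM10 ran from 644 to 695 in PC3E beside a highest GS689 library of 573. Neither change passed the test over all genes.

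RBM14 was at 1256, 575 and 1051 CPM in PC3E and 747, 645 and 695 in GS689. PC3E replicate 2 was the lowest library and replicates 1 and 3 the highest. The log2 change was -0.40 (SE 0.24, adjusted p = 0.241 by limma-voom), and without PC3E replicate 2 it was -0.73 with an adjusted p of 0.00154, which was called. The same replicate was lowest for RBM3, at 148. RBM15 was at 23.6, 12.98 and 15.7 in PC3E and 19.5, 2.42 and 8.10 in GS689 (log2 -1.07, 95% interval -2.41 to 0.27, adjusted p = 0.210 by limma-voom), from at most 20 counts. Its log2 change was -1.79 without GS689 replicate 1 and -0.31 without GS689 replicate 2. The totals of RBM5 (log2 0.16), RBM25 (0.08) and RBM27 (-0.03), and that of the read-through gene RBM14-RBM4 (0.01), had overlapping lines and adjusted p of 0.394 to 0.981 by limma-voom.

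**Figure D4:**
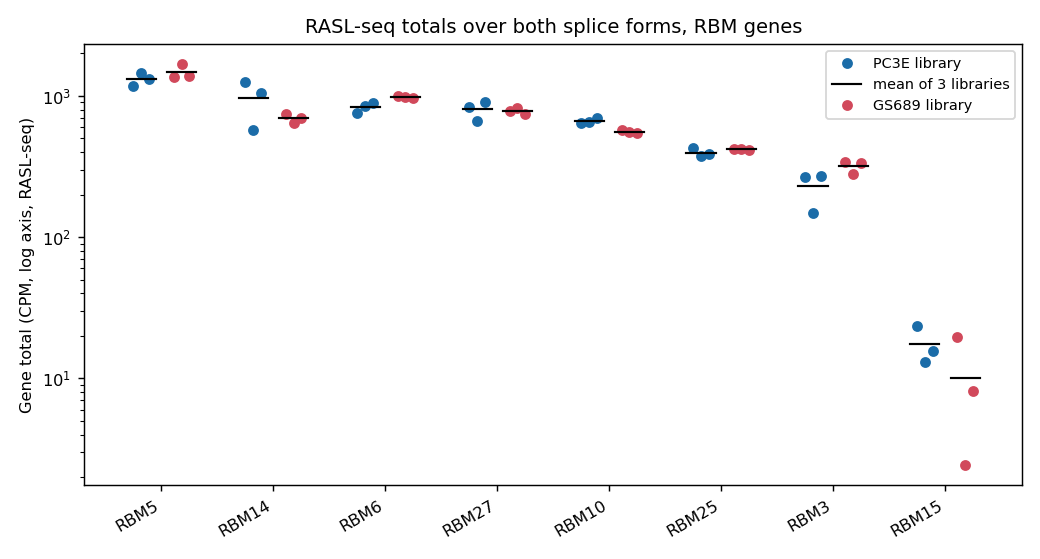
RASL-seq total over both splice forms (CPM, log axis) of the 8 RBM genes, with 1 point per library in PC3E (blue) and GS689 (red) and a line at the mean of 3 libraries. RBM3 and RBM6 lie higher and RBM10 lower in every GS689 library, and the low PC3E point of RBM14 and of RBM3 is replicate 2.

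In RNA-seq, 28 RBM genes had at least 20 counts in every library. The sets lay apart in 10 of them (48.3% of all 10813 genes), 8 with set 2 higher (RBM4B, RBM5, RBM6, RBM17, RBM22, RBM23, RBM39 and RBM48, beside 29.3% of all genes) and 2 with set 2 lower (RBM34 and RBM47, beside 19.1%). Set means were past 2-fold in 2, RBM17 and RBM47, where 16.0% of all genes were. The median log2 ratio of set 2 to set 1 was 0.04 over RBM genes and 0.11 over all genes, and the median absolute ratio 0.33 and 0.40.

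RBM47, a cofactor of C-to-U editing that also regulates splicing and mRNA stability, had the largest gap among these 28 genes. Its total was 17.0, 17.5 and 20.5 CPM (here scaled to the table total of the library alone) in set 1 and 0.384, 0.876 and 0.586 in set 2, from 1856, 1967 and 2481 counts against 36, 87 and 56. Every set 1 library was far above every set 2 library, and the set 2 mean was 3.35% of that of set 1 (log2 -4.90). Of 10 epithelial marker genes with enough counts, 9 lay apart with set 2 lower, among them EPCAM at 367 to 418 CPM in set 1 and 8.02 to 10.1 in set 2. Of 3 mesenchymal markers with enough counts, 2 lay apart with set 2 higher, VIM (49.97 to 64.4 CPM in set 1 and 1276 to 1461 in set 2) and CDH2 (38.5 to 58.8 and 93.9 to 147), while the sets overlapped for FN1 (415 to 569 and 248 to 485). Summed over the 12 epithelial markers in the table, the level was 1961 to 2249 CPM in set 1 and 206 to 322 in set 2, and for the 6 mesenchymal markers in the table it was 517 to 689 in set 1 and 1844 to 1856 in set 2. No marker of these lists in the table was at 0 throughout a set, and ZEB1 had 0 counts in library 2 of set 1. Their part in the RBM47 difference was not tested. In RASL-seq, RBM47 had no event.

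RBM17, a 3′ splice site factor that binds its partners by a U2AF-type domain, went the other way. It was at 63.1, 53.3 and 53.1 CPM in set 1 and 152.5, 121.9 and 148.0 in set 2, with each set 2 library above each set 1 library (log2 ratio of means 1.32). RBM39 was at 477, 456 and 429 in set 1 and 692, 670 and 600.0 in set 2. RBM5 was at 110, 132 and 130 in set 1 and 171, 202 and 159 in set 2, and RBM22, of the catalytic core, at 23.7, 22.0 and 23.8 in set 1 and 36.6, 34.0 and 34.2 in set 2. The sets did not overlap in these 3 genes either. RBM3 and RBM14 had their lowest value in library 2 of set 1, at 176 beside 415 and 354 for RBM3 and at 19.5 beside 42.4 and 41.8 for RBM14.

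A level per length was averaged over all listed events of each gene, events with few counts included, so it compares genes only roughly. The average was over 36 events for RBM39 and 4 for RBM17, and the part of this in the order was not tested. In CPM per 100 bases of effective length, RBM3 (median over the 6 libraries 22.0), RBM17 (12.2) and RBM39 (9.30) were highest. The lowest library of RBM3 (9.49) was below the highest of RBM17 (20.2), and the lowest of RBM17 (7.01) below the lowest of RBM39 (7.44), so the order of neighbours is not fixed by these libraries. RBM11 (0.01), RBM44 (0.01) and RBM20 (0.04), which act in brain and testis, germ cells and heart, were lowest and under 20 counts in at least 1 library. RBM11 had 69 counts in library 1 of set 1 (0.63 CPM) and at most 0.08 CPM in the other libraries.

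**Figure D5:**
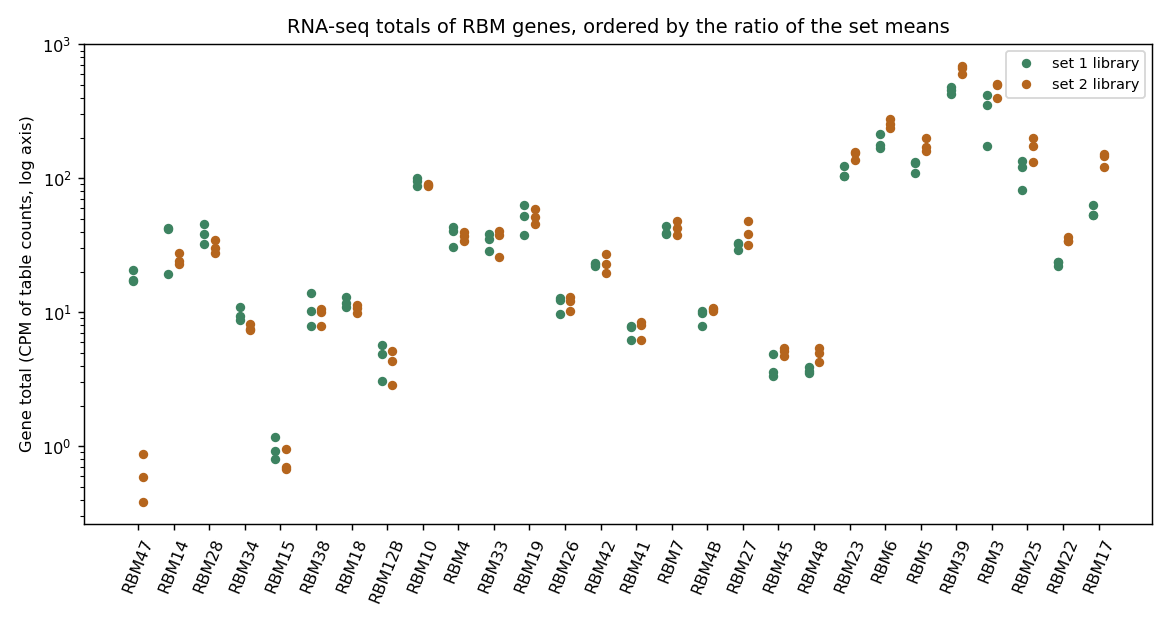
RNA-seq total (CPM of table counts, log axis) of the 28 RBM genes with at least 20 counts in every library, with 1 point per library of set 1 (green) and set 2 (orange), ordered by the ratio of set means. RBM47 at the left lies far lower and RBM17 at the right higher in all set 2 libraries, and in 18 genes the sets overlap.

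Genes that work with RBM proteins were counted from lists in the RASL-seq totals, where limma-voom called 29.8% of all totals. Of the partners at the U2 snRNP and 3′ splice site, U2SURP, a U2 snRNP-associated protein, fell in GS689 from 701 ± 109 to 478 ± 64.8 CPM (log2 -0.54, adjusted p = 0.0275; SD, n = 3 each, limma-voom). No total was called among 3 of the exon junction complex, 1 of the m6A machinery, 2 of nuclear RNA decay and paraspeckles, and 1 of the RBMX and RBMS relatives, of which 1 of the exon junction complex and that relative had an unadjusted p under 0.05. Of 9 other splicing regulators, 2 rose (MBNL1 with log2 0.67, RALY with 0.49) and 2 fell (MATR3 with -0.67, MBNL2 with -0.68). The totals named here were called without PC3E replicate 2 as well, with a log2 change of -0.68 for U2SURP.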

How the data were processed

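Both lines had 3 libraries in each assay. The RNA was isolated with Trizol and the kit was TruSeq Stranded Total RNA, per the labels' protocols. The submitters' processing notes name the build hg19 and the tools kallisto 0.43.0 and STAR 2.5.2a, without a role. The authors deposited 1 table per assay, with cells that hold several counts separated by commas. These were split into inclusion and skipping counts per library, and cells marked NA were read as 0. In RASL-seq the first count of a pair was taken as inclusion, since its share correlated across 1620 events with RNA-seq inclusion (r = 0.87, across events that are not independent). In 51 of 51 pairs of RASL-seq events it was identical to the count of the upstream junction, and in 0 of 41 to that of the downstream junction. Columns with values of samples that were not used numbered 0.

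Events were given a gene where chromosome, strand, exon length and both intron lengths matched exactly 1 gene of GENCODE 29, which is on another build, and no coordinates were converted. This held for 1934 of 2023 RASL-seq events (95.6%) and 109246 of 114816 RNA-seq events (95.1%). Printed positions are those of the deposited tables, counted from 1, and sequences are those of the matched GENCODE transcripts.

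RASL-seq inclusion was tested with a quasi-binomial model per event, with dispersions moderated with limma 3.58.1 in R 4.3.3 and held at 1 or above. Events needed a mean of 10 counts per library, 1 in each library and 10 of the rarer form. Gene totals were tested with limma-voom, scaled by trimmed means of log ratios. P-values were adjusted by Benjamini-Hochberg over all events or genes tested, and intervals are 95%. RNA-seq inclusion was corrected for effective length, at a minimum of 20 counts in every library. Named were all members with a RASL-seq event, all RBM5 and RBM39 exons between 5% and 95%, the 15 events with the widest gap of set means, the most evenly split exon of each member, and the 3 highest and lowest members by level. RBM47, RBM17, RBM22 and the other members whose totals lay apart were named after their values were seen, and so was the RBM34 exon shared with ARID4B. The members and lists were chosen with earlier results of these data known. The result of 1 gene of these lists is not reported here. Scripts were tested on simulated data. The alternatives tried were other tests, filters, scalings and summed counts, a replicate block, and leaving out each library.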

Additional observations from a re-analysis of the deposited data

How the results depend on the processing

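No event of an RBM gene alone was called in RASL-seq under any alternative run, while the shared RBM4 exon was called without PC3E replicate 2. The 31 RBM RNA-seq events between 5% and 95% became 24 with no length correction, 29 with a minimum of 50 counts and 32 with a minimum of 10. The median gap between assays was 4.19 points from means of library levels, beside 3.75. Over all events, 66 calls became 28 with limma on the log2 ratio (pseudocount 0.5), 4 with no filter but 1 count in each library and 25 with a minimum difference of 20 points, and 46 to 86 when 1 library was left out. Over all genes, 393 called totals became 242 with skipping counts alone and 276 to 473 when 1 library was left out. Called RBM totals went from 0 to between 0 and 1 when 1 library was left out, the 1 being RBM14 without PC3E replicate 2.

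Replicate numbers showed no consistent pairing of the libraries: same-numbered libraries correlated in their deviations at 0.27, 0.17 and -0.01 for totals and 0.10, 0.04 and 0.06 for inclusion. With the replicate block, 88 events, 465 totals and 1 RBM total were called, the last being RBM3 (log2 0.49, adjusted p = 0.0309 by limma-voom).

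Of 225 values of 19 single RBM events and totals under alternatives, 209 kept direction and stayed below the threshold, 3 passed it and 13 changed direction, all in results that were not called. These were the RBM3 269 nt exon at -0.0793 (pseudocount 5) and -0.0433 (replicate block) and the RBM14-RBM4 total at -0.0084 (no filter), and the others came from leaving out 1 library. Log2 odds ratios then ran from -0.0731 to 0.0474 for RBM27 exon 9, -0.4387 to 0.5466 for the RBM3 269 nt exon, -0.4976 to 0.0012 for the shared RBM4 exon and -0.0202 to 0.283 for the RBM6 74 nt exon. Log2 changes of totals ran from -0.123 to 0.0854 for RBM14-RBM4 and -0.1641 to 0.0626 for RBM27. The cause was not tested. RBM15 and RBM27 exon 13 rest on 2 to 39 counts per library, which limits both.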
